A study of Mus musculus with 6 samples.

Results

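The integrin subunits and the core proteins of focal adhesions were examined in primary mouse hepatic stellate cell libraries, as 37 genes of the 22966 in the deposited count table. The 37 genes were taken by symbol. They comprise 26 integrin subunits and 11 adhesion proteins, and all of them had a row. Stellate cells store retinoids beside the sinusoids of the healthy liver and become contractile, matrix-producing myofibroblasts after injury. There were 6 libraries, 3 titled flox and 3 titled Cre, and the titles alone separate the groups. The sample sheets of both groups give 1 genotype entry, BucheHep, and 1 treatment entry, carbon tetrachloride (CCl4), a hepatotoxin used to induce liver fibrosis. The series describes mice that lack butyrylcholinesterase in hepatocytes, kept on chow. It asks how that enzyme acts on stellate cell activation through muscarinic signalling. The promoter that drives Cre, the age of the mice, the length of CCl4 treatment and any sort of the cells are not stated in the labels. Nor do they say if each library stems from its own mouse, so the p-values rest on a spread between libraries that may be technical.

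Integrins are paired alpha and beta chains that span the plasma membrane and join matrix or cell surface ligands to the actin cytoskeleton. Their ligands follow from the pairing: the beta2 and beta7 chains form receptors of leukocytes, the collagen and laminin receptors mostly use beta1, and the alphaV chain pairs with several beta chains to bind ligands with an RGD motif. Talin and kindlin bind the beta chain tail and switch the receptor on, and vinculin, paxillin, zyxin, focal adhesion kinase and the ILK-PINCH-parvin complex assemble around them. In stellate cells, integrins bind the scar matrix, and alphaV integrins are known to release latent TGF-beta.

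The libraries held 37273142 to 41006722 counts. Over 14795 genes that passed a filter on low counts, 940 were higher (6.35%) and 1323 lower (8.94%) in Cre than in flox at an adjusted p below 0.05 in edgeR's quasi-likelihood test, the threshold used throughout. Bche, the gene deleted in hepatocytes, had 6 to 21 counts in flox and 2 to 15 in Cre, which checks no label in cells of another type. The library flox 3 lay nearer to the Cre libraries than flox 1 and flox 2 did for 57.0% of the genes tested. Macrophage and Kupffer cell markers moved with the groups: 18 of 20 fell, with summed levels of 10128 to 28854 CPM (counts scaled to library size, TMM-normalised) in flox and 3306 to 4019 CPM in Cre. Some stellate markers were well expressed and others were near absent. Decorin (Dcn) stood at 459, 370.2 and 419 CPM in flox 1, 2 and 3 and 792, 713 and 1412 CPM in Cre 1, 2 and 3, and Ecm1 at 168, 196 and 123 CPM and 131, 131 and 180.2 CPM. However, the retinol esterifying enzyme gene Lrat stood at 0.124 to 2.49 CPM and the glial filament gene Gfap at 0 to 0.0978 CPM, both named after their values were seen. The endothelial genes Cdh5 and Pecam1 stood at 622, 491 and 2011 CPM and 408, 294 and 904 CPM in flox 1, 2 and 3 and 1045, 1619 and 1256 CPM and 511, 755 and 638 CPM in Cre 1, 2 and 3. Of 13 stellate markers tested 2 rose and 0 fell, and of 12 endothelial markers 0 rose and 1 fell. The stellate markers, highest for Dcn and Ecm1, summed to 783 to 907 CPM in flox and 1120 to 2106 CPM in Cre. Both ranges lay below those of the macrophage and Kupffer cell markers. Summed levels in flox and in Cre were 358 to 851 and 186 to 529 CPM for hepatocyte markers, highest for Trf and Alb, with 0 of 10 tested past the threshold. They were 158 to 1950.5 and 398 to 415 CPM for cholangiocyte markers, highest for Spp1 and Bicc1, with 1 of 8 higher. Most of the cholangiocyte sum in flox 1 and flox 2 was Spp1. It stood at 1441, 1855 and 75.1 CPM in flox 1, 2 and 3 and 219, 207 and 288 CPM in Cre 1, 2 and 3. Summed levels in flox and in Cre were 752 to 2507 and 1432 to 2300.3 CPM for myofibroblast markers, highest for Col1a1 and Col1a2, with 2 of 10 higher. They were 119 to 239.9 and 202 to 303 CPM for smooth muscle markers, highest for Kcnj8 and Smtn, with 0 of 7 past the threshold. No call survived the loss of any 1 of flox 1, flox 2, Cre 1 and Cre 2: edgeR then called 0 genes, while 3720, 3562, 3593 and 3978 had an unadjusted p below 0.05. Other tools were not run with a library left out. Without flox 3, edgeR called 34.8% of genes in either direction, and without Cre 3 it called 8.95%, against 15.3% with all libraries.

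Genes of the beta2 integrins, the adhesion receptors particular to leukocytes, were lower in the Cre libraries. Of 7 leukocyte integrin subunits, 5 passed the filter on low counts, 3 of these fell and 0 rose, against 8.94% of all genes tested called lower. The 3 were Itgb2, Itgal and Itgam, and each of them stood lower in every Cre library than in any flox library. The median log2 fold change of the 5, Cre over flox, was -1.67, against 0.012 over all genes tested. In these bulk libraries, fewer leukocytes and less integrin RNA per leukocyte cannot be told apart.

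Itgb2 encodes beta2, the chain that all of LFA-1, Mac-1 and the related leukocyte receptors share (chromosome 10, 77530252 to 77565708 in GRCm38). It stood at 929.5, 1128 and 464 CPM in flox 1, 2 and 3 and 184, 179 and 223 CPM in Cre 1, 2 and 3. The lowest flox library, flox 3, was still above the highest Cre library, Cre 3. Its log2 fold change was -2.10 ± 0.33 (± standard error from 3 libraries a group, adjusted p = 0.0237 in edgeR), a 4.30-fold lower level. Itgal encodes alphaL, which with beta2 forms LFA-1, the receptor for ICAM-1 (chromosome 7, 127296260 to 127335138). It stood at 297, 305 and 243 CPM in flox 1, 2 and 3 and 64.4, 43.9 and 123 CPM in Cre 1, 2 and 3. Its flox libraries were close together, while Cre 3 was the highest of the Cre libraries, and the log2 fold change was -1.87 ± 0.37 (adjusted p = 0.0271 in edgeR).

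Itgam encodes alphaM, or CD11b, the alpha chain of the complement receptor Mac-1 on macrophages, monocytes and neutrophils (chromosome 7, 128062640 to 128118491). It was the most abundant of the leukocyte alpha chains, at 739.9, 902 and 405 CPM in flox 1, 2 and 3 and 209, 200.1 and 304 CPM in Cre 1, 2 and 3. The groups did not overlap, with flox 3 again lowest in flox and Cre 3 highest in Cre. The fitted log2 fold change came to -1.52 ± 0.32 (adjusted p = 0.0311 in edgeR). The annotation places 68.7% of its exonic bases also in a predicted gene on the same strand, so reads of the 2 cannot be separated. The adjusted p without flox 1, flox 2, Cre 1 and Cre 2 in turn was 0.0849, 0.0644, 0.107 and 0.0799 for Itgb2, 0.0916, 0.0840, 0.118 and 0.0798 for Itgal and 0.101, 0.0889, 0.128 and 0.104 for Itgam. The direction held in each of these fits.

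Itgam is shown with its promoter because it is the most abundant leukocyte alpha chain and its upstream sequence holds GAGGAA, the core recognised by PU.1, the myeloid transcription factor encoded by Spi1. The stretch is chr7:128062390-128062639 of GRCm38.p6, plus strand, from RefSeq, and ends at the base before the start site. Capitals mark the matches to GAGGAA, searched on both strands, so that TTCCTC is the match on the other strand.
Itgam: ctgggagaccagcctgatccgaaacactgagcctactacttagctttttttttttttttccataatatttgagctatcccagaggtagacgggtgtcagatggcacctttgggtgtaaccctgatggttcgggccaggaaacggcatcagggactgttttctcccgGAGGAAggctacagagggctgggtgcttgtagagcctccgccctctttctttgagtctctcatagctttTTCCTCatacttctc
The 2 matches end 78 and 9 bases before the start. Of 32851 promoters of the same length in the table, 23.3% held GAGGAA at least once, so such a match is common. Promoters of 25 of the 37 genes were matched by symbol, as 30 promoters, of which 10 held a match. Besides Itgam these were 9 genes of the matrix-binding and core groups, among them Itgb1, Itgav, Itga5 and Tln1, while those of Itgax and Itgb7 held 0 matches in this window. Spi1 itself stood at 258, 308 and 121 CPM in flox 1, 2 and 3 and 51.4, 41.0 and 71.3 CPM in Cre 1, 2 and 3, or -2.07 ± 0.38 on the log2 scale (adjusted p = 0.0251 in edgeR), and is itself 1 of the 10 leukocyte genes counted with the markers.

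Itgax and Itgb7 did not pass. Itgax encodes alphaX, or CD11c, found on dendritic cells and some macrophages. It stood at 124, 94.6 and 20.7 CPM in flox 1, 2 and 3 and 11.6, 27.0 and 41.4 CPM in Cre 1, 2 and 3. The groups overlapped, since flox 3 lay below Cre 2 and Cre 3, and the log2 fold change was -1.58 ± 0.70 (adjusted p = 0.163 in edgeR). Itgb7 encodes beta7, the partner of alpha4 and alphaE on lymphocytes and some myeloid cells. It stood at 33.4, 54.1 and 5.0 CPM in flox 1, 2 and 3 and 9.69, 5.53 and 13.8 CPM in Cre 1, 2 and 3. Here flox 3 was the lowest of all 6 libraries, and the log2 fold change was -1.67 ± 0.78 (adjusted p = 0.182 in edgeR). Without flox 3, where 34.8% of genes were called, both passed. The log2 fold changes were then -2.03 (adjusted p = 0.0219 in edgeR) for Itgax and -2.17 (adjusted p = 0.00988 in edgeR) for Itgb7. The remaining 2 subunits had too few counts for the test. The counts of Itgae, alphaE of intraepithelial lymphocytes, were 4, 26 and 3 in flox 1, 2 and 3, against 4, 1 and 0 in Cre 1, 2 and 3. Those of Itgad, alphaD, were 3, 5 and 1 in flox 1, 2 and 3, against 1, 0 and 0 in Cre 1, 2 and 3. In these libraries 3 counts correspond to 0.0732 to 0.0805 CPM of the library total, a floor that covers counting error only. Itgad lies in a row with its relatives on chromosome 7, where Itgam, Itgax and Itgad follow each other on the plus strand with gaps of 11.1 and 3.72 kb. Within this row, Itgam was well expressed and Itgad was close to the floor.

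**Figure D1:**
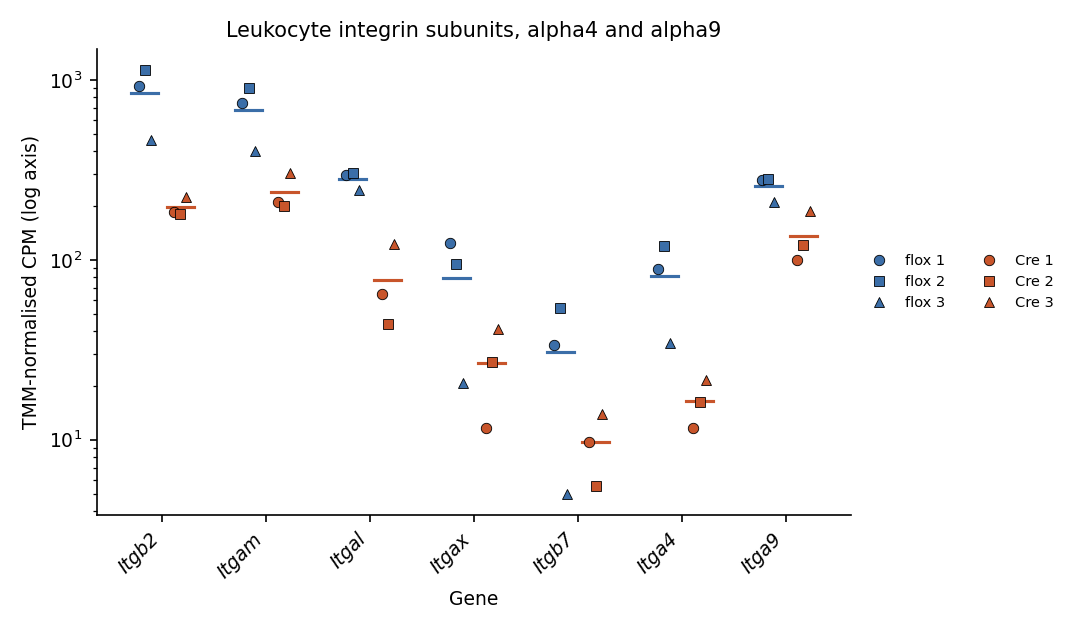
Levels of the 5 tested leukocyte integrin subunits and of alpha4 and alpha9 in each library, as TMM-normalised CPM on a log axis, with flox in blue and Cre in orange. Symbols stand for the library number and horizontal lines for group means. Itgb2, Itgam, Itgal, Itga4 and Itga9 do not overlap between the groups, whereas the flox 3 point lies among the Cre points for Itgax and below them for Itgb7.

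Markers of leukocytes were lower beside these integrins. In a list of 10 genes found in most leukocytes, 8 fell, against 8.94% of all genes tested, and 0 rose, with a median log2 fold change of -2.01. Their summed level was 1679 to 4322 CPM in flox and 751 to 1022 CPM in Cre, and 0 of them were at 0. Those of highest mean over the 6 libraries were Laptm5, at 947, 1229.8 and 309 CPM in flox 1, 2 and 3 and 126, 111 and 174 CPM in Cre 1, 2 and 3, and Cd53, at 710.5, 893 and 328 CPM and 186, 183 and 187 CPM. Macrophage and Kupffer cell markers had a median of -2.94, with 0 of them at 0. Those of highest mean over the 6 libraries were the lysozyme gene Lyz2 and the Kupffer cell gene Cd5l. Lyz2, which did not pass (adjusted p = 0.103 in edgeR), stood at 3564, 4222 and 828 CPM in flox 1, 2 and 3 and 538, 1178 and 972 CPM in Cre 1, 2 and 3. Cd5l, which fell, stood at 3541, 4734 and 1951 CPM and 371, 196 and 245 CPM. The T cell and NK cell markers were low in both groups, at summed levels of 12.6 to 28.8 CPM in flox and 11.4 to 23.0 CPM in Cre with 0 of 11 past the test. Their 2 genes of highest mean, Lck and Cd4, stood at 3.81, 3.79 and 4.0 CPM in flox 1, 2 and 3 and 3.70, 4.92 and 6.82 CPM in Cre 1, 2 and 3, and at 8.32, 8.28 and 1.42 CPM and 0.576, 0.724 and 1.71 CPM, in that order. Of 8 neutrophil markers 4 were tested and 1 fell, against 8.94% of all genes tested. Their summed levels were 97.9 to 151 CPM in flox and 23.3 to 65.1 CPM in Cre. The 1 that fell was the highest of them, the receptor gene Csf3r, at 118, 140.2 and 89.5 CPM in flox 1, 2 and 3 and 31.9, 14.3 and 49.6 CPM in Cre 1, 2 and 3 (adjusted p = 0.0383 in edgeR). The next, Mmp9, stood at 4.18 to 9.39 CPM over all libraries, and the granulocyte gene Ly6g had 0 counts in each.

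Dendritic and B cell markers held genes that fell as well. Over all genes tested, 8.94% were called lower and 6.35% higher. Of 9 dendritic cell markers 6 were tested, 3 fell and 0 rose, at summed levels of 254 to 342 CPM in flox and 115 to 164 CPM in Cre. The 3 not tested, Xcr1, Cd209a and Siglech, named after their values were seen, reached at most 0.184, 0.201 and 0.473 CPM. The 2 of highest mean were Irf8, which fell, at 241, 266 and 179.9 CPM in flox 1, 2 and 3 and 75.4, 103 and 93.5 CPM in Cre 1, 2 and 3, and Zbtb46, which did not pass, at 13.6, 11.5 and 27.5 CPM and 18.6, 32.4 and 24.9 CPM. Of 8 B cell markers 7 were tested, 2 fell and 1 rose, at summed levels of 52.9 to 220.2 CPM in flox and 13.6 to 15.8 CPM in Cre. Those that fell were the 2 of highest mean, Cd22, at 147, 182 and 44.2 CPM in flox 1, 2 and 3 and 9.21, 7.51 and 8.29 CPM in Cre 1, 2 and 3, and Bank1, at 17.0, 31.0 and 5.95 CPM and 0.425, 0.917 and 0.489 CPM.

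The integrin levels were also set against these markers. Measured against the mean log2 CPM of the 10 leukocyte genes, Itgb2 stood at 1.86, 1.84 and 1.92 in flox 1, 2 and 3, against 1.54, 1.76 and 1.52 in Cre 1, 2 and 3. Its groups did not overlap on this relative scale, on which their means differed by -0.27. Relative to the 20 macrophage markers the direction turned: Itgb2 was at 0.64, 0.49 and 0.78 in flox 1, 2 and 3, against 1.09, 1.66 and 1.49 in Cre 1, 2 and 3, higher in each Cre library. Itgam stood at 1.54, 1.52 and 1.72 relative to the 10 leukocyte genes in flox 1, 2 and 3, against 1.73, 1.92 and 1.97 in Cre 1, 2 and 3, with the highest flox library narrowly below the lowest Cre library. Relative to the macrophage markers, Itgam was likewise higher in each Cre library, at 0.31, 0.17 and 0.58 in flox 1, 2 and 3, against 1.27, 1.81 and 1.94 in Cre 1, 2 and 3. These relative scales were chosen after the values had been seen, and the part of cell composition in the integrin differences was not tested.

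The alpha4 and alpha9 chains, which form a subfamily of their own and bind VCAM-1, fibronectin and other ligands, were lower in each Cre library than in any flox library. Itga4, found on lymphocytes, monocytes and eosinophils (chromosome 2, 79255426 to 79333123), stood at 89.2, 119 and 34.5 CPM in flox 1, 2 and 3 and 11.7, 16.2 and 21.5 CPM in Cre 1, 2 and 3. It had the steepest fall of all 33 tested members, a log2 fold change of -2.30 ± 0.47 (adjusted p = 0.0290 in edgeR). Without flox 1, flox 2, Cre 1 and Cre 2 in turn its adjusted p was 0.0933, 0.0825, 0.118 and 0.0965, and without Cre 3 it was 0.0502. Exons of Cerkl on the opposite strand overlap 8.04% of its exonic bases. Itga9, which binds tenascin-C and osteopontin among others, stood at 279, 280.4 and 210.0 CPM in flox 1, 2 and 3 and 99.8, 121 and 186 CPM in Cre 1, 2 and 3. At -0.92 ± 0.25 on the log2 scale it did not pass in edgeR (adjusted p = 0.0536), but passed without flox 3 (0.0250) and without Cre 3 (0.0314). Those 2 fits called 34.8% and 8.95% of genes. Relative to the 10 leukocyte genes, Itga9 was at 0.13, -0.17 and 0.78 on the log2 scale in flox 1, 2 and 3, against 0.66, 1.19 and 1.26 in Cre 1, 2 and 3, with overlap.

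Beta chains can be compared with each other only per length, for which the deposited FPKM (fragments per kilobase of length, scaled by library total) were used. In flox, Itgb2 and Itgb1 shared the first place. Itgb2 made up 51.3, 55.3 and 37.7% of the summed FPKM of the 8 beta chains in flox 1, 2 and 3, against 18.6, 17.5 and 19.6% in Cre 1, 2 and 3. Itgb1, the partner of most matrix-binding alpha chains, made up 31.3, 27.0 and 50.6% in flox 1, 2 and 3, against 69.0, 70.8 and 64.0% in Cre 1, 2 and 3. Thus Itgb2 led in flox 1 and flox 2, and Itgb1 led in flox 3 and in all Cre libraries. The log2 ratio of Itgb2 to Itgb1 FPKM was 0.71, 1.04 and -0.43 in flox 1, 2 and 3, against -1.89, -2.02 and -1.70 in Cre 1, 2 and 3. The means were 0.44 ± 0.77 and -1.87 ± 0.16 (SD, n = 3), with no overlap (two-sided exact permutation test p = 0.10, the smallest that 3 against 3 allows). Each of the 2 genes already separated the groups, in opposite directions, so this p was fixed by them and adds no evidence.

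Among the 18 alpha chains, Itgam held the largest FPKM share in flox 1 and flox 2, at 34.9% and 41.0%. The fibronectin receptor chain Itga5 held the largest share in flox 3, 31.6%, and in each Cre library. Its shares were 22.8, 18.9 and 31.6% in flox 1, 2 and 3, against 35.9, 32.1 and 41.2% in Cre 1, 2 and 3, and they did not overlap. Itgav ranked 5 or 6 in flox and 3 or 4 in Cre, with shares of 5.56, 6.65 and 4.90% in flox 1, 2 and 3, against 10.1, 11.2 and 7.52% in Cre 1, 2 and 3. Shares sum to 100%, so a lower share of leukocyte chains raises the others without any change in their own level. All 7 leukocyte subunits together made up 52.7, 57.1 and 38.8% of the FPKM of the 26 subunits in flox 1, 2 and 3, against 21.2, 20.9 and 24.5% in Cre 1, 2 and 3.

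**Figure D2:**
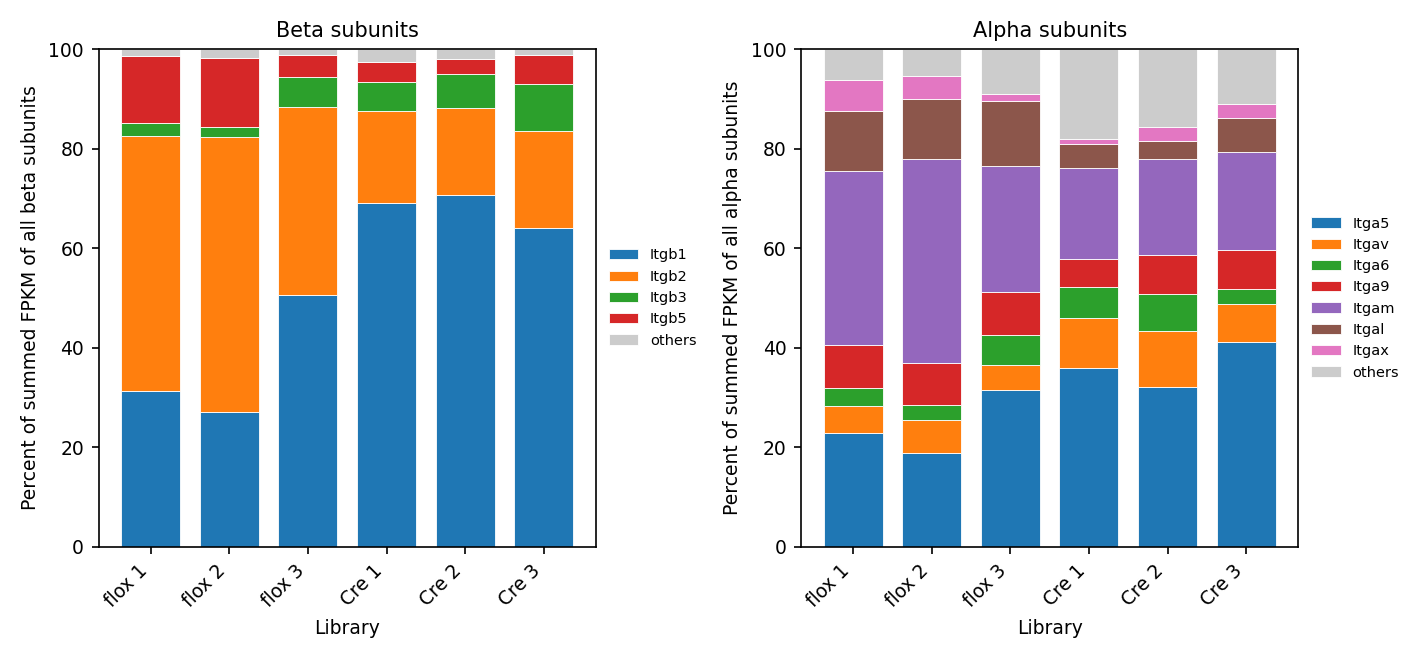
Composition of the integrin transcripts in each library, as percent of the summed FPKM of the 8 beta chains (left) and of the 18 alpha chains (right). Itgb2 takes 37.7 to 55.3% of the beta chains in flox and 17.5 to 19.6% in Cre, and Itgb1 takes 64.0 to 70.8% in Cre.

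The matrix-binding integrins were mixed. Of 17 subunits 15 were tested, 2 rose, against 6.35% of all genes tested, and 0 fell in edgeR, against 8.94%. Their median log2 fold change was 0.025, with 8 positive and 7 negative values. The 2 that rose were Itga3 and Itgb8. In 4 of the 15 all Cre libraries stood above all flox libraries, against 19.6% of all genes tested, and in 2 all stood below, against 20.0%.

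Itgb1, the beta chain common to the collagen, laminin and fibronectin receptors (chromosome 8, 128685654 to 128733200), stood at 799, 776 and 879 CPM in flox 1, 2 and 3 and 964, 1024 and 1025 CPM in Cre 1, 2 and 3. All Cre libraries were above all flox libraries, by little. At 0.30 ± 0.11 on the log2 scale the difference did not pass (adjusted p = 0.117 in edgeR). It passed without flox 3 at 0.35 (adjusted p = 0.0343 in edgeR), a fit that called 34.8% of genes.

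The laminin receptor chains lay mostly on the higher side in Cre. Itga3, alpha3 of the receptor for laminins of basement membranes (chromosome 11, 95044474 to 95076801), stood at 21.7, 19.3 and 33.6 CPM in flox 1, 2 and 3 and 84.4, 64.7 and 40.0 CPM in Cre 1, 2 and 3. The groups did not overlap, but Cre 3 lay close to flox 3. The log2 fold change was 1.34 ± 0.32 (adjusted p = 0.0409 in edgeR), and without flox 1, flox 2, Cre 1 and Cre 2 in turn its adjusted p was 0.140, 0.133, 0.144 and 0.111. Itga7, alpha7, the laminin receptor of muscle cells, stood at 28.8, 17.9 and 42.9 CPM in flox 1, 2 and 3 and 117, 62.8 and 51.7 CPM in Cre 1, 2 and 3. Its groups did not overlap either, with 1.37 ± 0.41 on the log2 scale (adjusted p = 0.0675 in edgeR). The adjusted p was 0.0234 without flox 3, where edgeR called 34.8% of genes. Itgb4, beta4 of the epithelial hemidesmosome, stood at 15.3, 11.4 and 20.9 CPM in flox 1, 2 and 3 and 35.6, 25.1 and 10.8 CPM in Cre 1, 2 and 3, so Cre 3 was the lowest library of all. At 0.58 ± 0.44 on the log2 scale Itgb4 did not pass (adjusted p = 0.380 in edgeR). Itga6, the alpha partner of beta4, ranged from 83.8 to 125 CPM in flox and from 61.3 to 101 CPM in Cre, at -0.29 ± 0.23 on the log2 scale (adjusted p = 0.399 in edgeR). For Itga3, Itga7 and Itgb4, Cre 1 was highest, Cre 2 next and Cre 3 lowest of the Cre libraries. Mesothelial markers split the Cre libraries as well: their summed level was 706 and 824 CPM in Cre 1 and Cre 2, 202 CPM in Cre 3 and 176 to 261 CPM in flox. Of the 8 markers 0 passed the test and 0 were at 0. Those of highest mean were Lrrn4, at 77.1, 41.2 and 73.1 CPM in flox 1, 2 and 3 and 224, 266 and 60.6 CPM in Cre 1, 2 and 3, and Msln, at 44.3, 28.5 and 44.2 CPM and 117, 80.6 and 34.6 CPM. The part of mesothelial RNA in these values was not tested.

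The collagen receptor alpha chains differed among each other. Itga1, alpha1, the collagen IV and I receptor of stellate, endothelial and smooth muscle cells, stood at 49.9, 33.6 and 57.7 CPM in flox 1, 2 and 3 and 35.9, 52.8 and 51.5 CPM in Cre 1, 2 and 3. The groups overlapped and the log2 fold change was -0.011 ± 0.24 (adjusted p = 0.980 in edgeR). Itga2, alpha2, stood at 9.43, 10.7 and 12.3 CPM in flox 1, 2 and 3 and 27.2, 9.94 and 69.0 CPM in Cre 1, 2 and 3. Cre 3 and Cre 1 were above flox, and Cre 2 lay within the flox range. At 1.71 ± 0.63 on the log2 scale it did not pass (adjusted p = 0.110 in edgeR) and was 0.80 without Cre 3 (adjusted p = 0.256 in edgeR). Itga10, alpha10 of cartilage, stood at 3.15, 3.08 and 3.53 CPM in flox 1, 2 and 3 and 1.58, 2.51 and 2.54 CPM in Cre 1, 2 and 3, below flox in every Cre library, with a log2 fold change of -0.56 ± 0.30 (adjusted p = 0.237 in edgeR). A predicted gene on the same strand covers 33.5% of its exonic bases. Itga11, alpha11, a collagen receptor known from myofibroblasts, did not pass the filter on low counts and was not tested. Its counts were 36, 9 and 0 in flox 1, 2 and 3, against 1, 1 and 15 in Cre 1, 2 and 3, most of them in flox 1 and Cre 3.

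Among the RGD-binding chains Itgb8 rose, and Itgb5 did not pass the test with all libraries. Itgb8, beta8, the partner of alphaV that binds latent TGF-beta (chromosome 12, 119158022 to 119238802), stood at 1.89, 2.56 and 2.44 CPM in flox 1, 2 and 3 and 8.94, 18.3 and 4.21 CPM in Cre 1, 2 and 3. All Cre libraries were above all flox libraries, with Cre 2 highest and Cre 3 lowest of the Cre libraries. The summed mesothelial markers had the same highest and lowest Cre library, and their part in Itgb8 was not tested. Itgb8 had the steepest rise of the 33 tested members, a log2 fold change of 2.19 ± 0.53 (adjusted p = 0.0413 in edgeR), and without flox 1, flox 2, Cre 1 and Cre 2 in turn its adjusted p was 0.139, 0.121, 0.122 and 0.101. Its level was low all the same: 0.201 to 0.281 FPKM in flox and 0.499 to 2.22 FPKM in Cre. Itgb5, beta5, another partner of alphaV and a vitronectin receptor chain (chromosome 16, 33829665 to 33949338), stood at 275, 320.4 and 62.0 CPM in flox 1, 2 and 3 and 45.4, 35.6 and 74.3 CPM in Cre 1, 2 and 3. Flox 3 lay with the Cre libraries, between Cre 1 and Cre 3. Itgb5 was at -2.08 ± 0.61 on the log2 scale (adjusted p = 0.0627 in edgeR). Without flox 3, where 34.8% of genes were called, it was at -2.52 (adjusted p = 0.00267 in edgeR). The high libraries of Itgb5, flox 1 and flox 2, were also those with the highest summed macrophage markers, 22789 and 28854 CPM against 10128 CPM in flox 3, and the part of macrophage RNA in its level was not tested.

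The other alphaV partners and the alpha chains of the RGD group did not pass. Itgav, alphaV itself, stood at 176, 219 and 117 CPM in flox 1, 2 and 3 and 174, 173 and 174 CPM in Cre 1, 2 and 3, with Cre values inside the flox range, at 0.025 ± 0.22 on the log2 scale (adjusted p = 0.949 in edgeR). Itgb3, beta3, stood at 96.5, 86.8 and 153 CPM in flox 1, 2 and 3 and 117, 137 and 214 CPM in Cre 1, 2 and 3, at 0.48 ± 0.30 on the log2 scale (adjusted p = 0.296 in edgeR). By FPKM, Itgb3 was 0.199, 0.153 and 1.39 times Itgb5 in flox 1, 2 and 3, against 1.46, 2.18 and 1.63 times Itgb5 in Cre 1, 2 and 3. Among these alphaV partners Itgb5 was thus the more abundant in flox 1 and flox 2, and Itgb3 in the other 4 libraries. Itgb6, beta6 of injured epithelium, had 0 counts throughout, and the 3 counts that a 0 still allows equal 0.0732 to 0.0805 CPM. Itga5, alpha5 of the fibronectin receptor, was the most abundant matrix-binding alpha chain, at 462, 396 and 482 CPM in flox 1, 2 and 3 and 395, 318 and 611 CPM in Cre 1, 2 and 3. Its groups overlapped at -0.019 ± 0.25 on the log2 scale (adjusted p = 0.966 in edgeR), while its share of the alpha chains was larger in each Cre library. Itga8, alpha8, a nephronectin receptor chain known from stellate and mesangial cells, stood at 21.6, 20.2 and 34.0 CPM in flox 1, 2 and 3 and 5.13, 13.7 and 5.28 CPM in Cre 1, 2 and 3. All Cre libraries were lower, with a log2 fold change of -1.65 ± 0.44 that did not pass in edgeR (adjusted p = 0.0509). Itga8 passed in limma-voom (0.0474) and DESeq2 (0.00184), which called 9.49% and 23.1% of their genes. It also passed in edgeR with no count filter (0.0432) and with at least 1 CPM in 3 libraries (0.0496), which called 9.87% and 18.0%. It did not pass in the other alternatives, among them each fit with 1 library left out. Itga2b, the platelet chain, ranged from 2.13 to 3.53 CPM over all libraries, at -0.027 ± 0.32 on the log2 scale. Of 9 platelet and megakaryocyte markers 2 were tested and 0 passed, at summed levels of 14.1 to 42.0 CPM in flox and 12.3 to 30.7 CPM in Cre. The highest, the chemokine gene Pf4, stood at 30.02, 40.2 and 12.9 CPM in flox 1, 2 and 3 and 11.6, 12.8 and 30.3 CPM in Cre 1, 2 and 3. The next, Ppbp, stood at 0.0734 to 0.546 CPM, while the platelet receptor genes Gp9 and Gp1bb, named after their values were seen, reached at most 0.0497 and 0.0287 CPM.

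**Figure D3:**
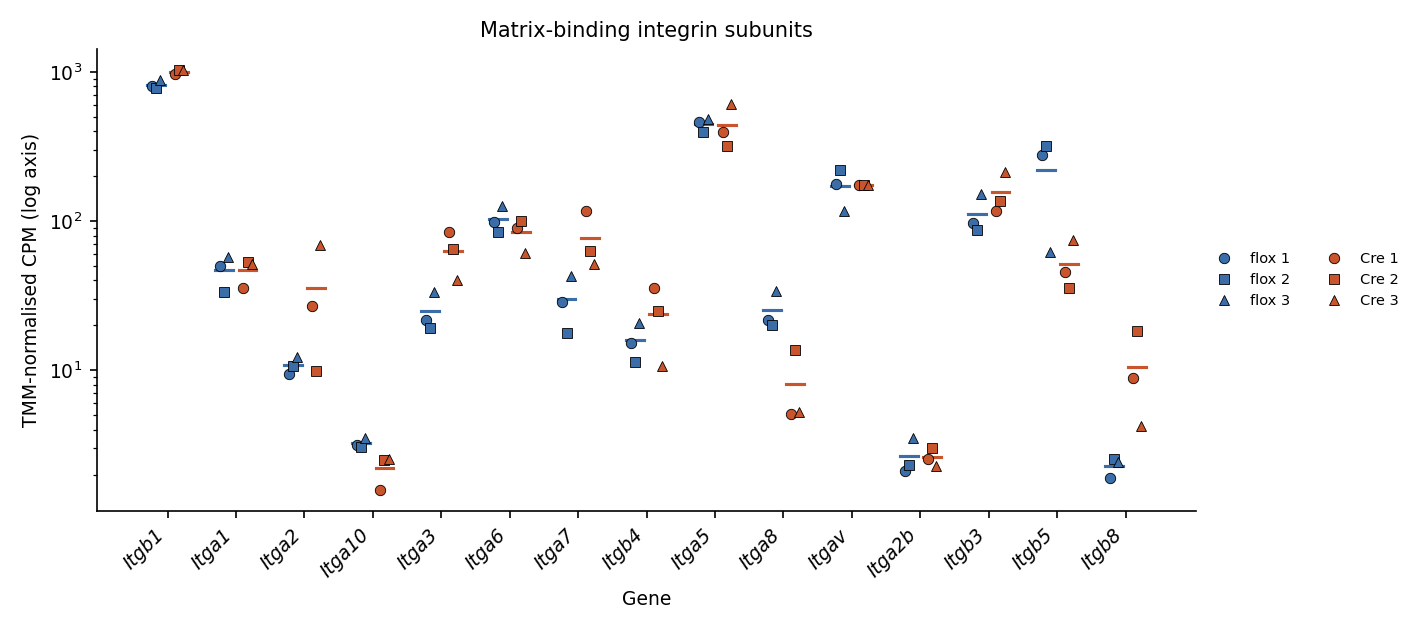
Levels of the 15 tested matrix-binding integrin subunits in each library, as TMM-normalised CPM on a log axis, with flox in blue and Cre in orange. Symbols stand for the library number and horizontal lines for group means. Itga3, Itga7, Itgb8 and Itgb1 lie above flox in every Cre library, and the flox 3 point of Itgb5 lies among the Cre points.

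Set side by side, the leukocyte and the matrix-binding integrins had median log2 fold changes of -1.67 and 0.025, a difference of -1.70. All 5 tested leukocyte subunits were on the lower side, from -2.10 to -1.52, whereas the 15 matrix-binding subunits ran from -2.08 to 2.19. For each library, the mean log2 CPM of the 15 matrix-binding subunits was subtracted from that of the 5 leukocyte subunits. The difference was 2.75, 3.03 and 1.09 in flox 1, 2 and 3, against 0.23, 0.15 and 1.10 in Cre 1, 2 and 3. Flox 3 lay just below Cre 3 at this measure, so the groups overlapped. CPM takes no account of gene length, so the difference compares libraries and does not rank the 2 classes. By FPKM, the leukocyte subunits made up 20.9 to 24.5% of all integrin subunits in Cre. The leukocyte mean itself was 7.92, 8.11 and 6.43 log2 CPM in flox 1, 2 and 3, against 5.62, 5.57 and 6.43 in Cre 1, 2 and 3. The matrix-binding mean was 5.17, 5.08 and 5.35 in flox 1, 2 and 3, against 5.39, 5.42 and 5.33 in Cre 1, 2 and 3. The members were chosen with results of these data known, so no p is given for these class values.

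**Figure D4:**
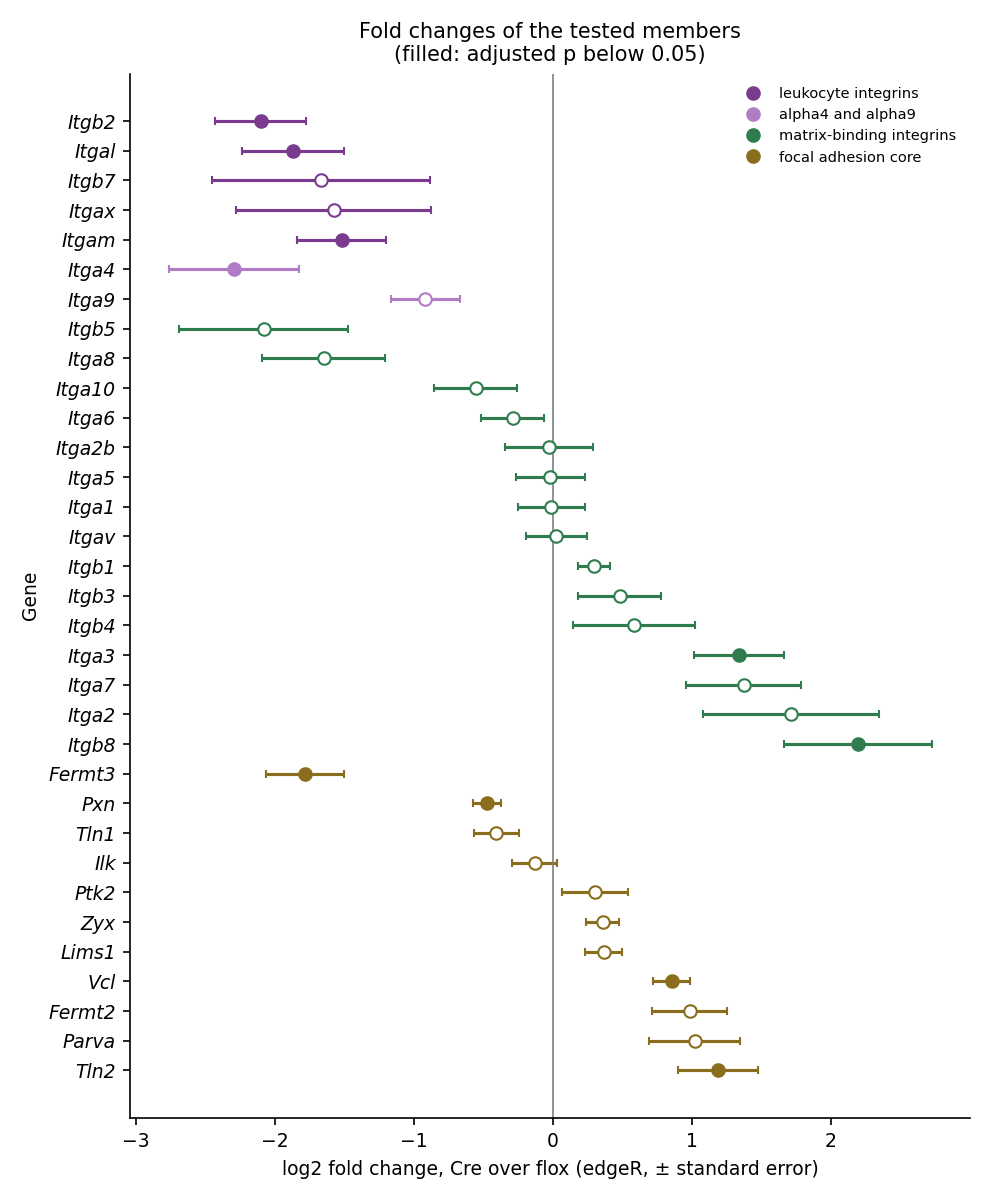
The log2 fold changes of the 33 tested members, Cre over flox, from edgeR with their standard errors, grouped as leukocyte integrins, alpha4 and alpha9, matrix-binding integrins and focal adhesion core. Filled points passed at an adjusted p below 0.05. The 5 leukocyte subunits lie between -2.10 and -1.52, while the matrix-binding subunits and the core proteins lie on both sides of 0.

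The focal adhesion core held both genes that rose and genes that fell. Of 11 genes, all were tested, 2 rose, Vcl and Tln2, and 2 fell, Fermt3 and Pxn, against 6.35% and 8.94% of all genes tested. The median log2 fold change was 0.36. Groups did not overlap for 8 of the 11, 6 of them higher in Cre, against 19.6% of all genes tested, and 2 lower, against 20.0%.

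Fermt3 fell, and its paralogue Fermt2 stayed just short of the threshold on the higher side. Fermt3, kindlin-3, is the kindlin of blood cells (chromosome 19, 6998958 to 7019469), and stood at 269, 309 and 160.1 CPM in flox 1, 2 and 3 and 62.4, 61.9 and 90.3 CPM in Cre 1, 2 and 3. Its log2 fold change was -1.78 ± 0.28 (adjusted p = 0.0237 in edgeR), with no overlap. Relative to the 10 leukocyte genes, its level on the log2 scale was 0.078, -0.024 and 0.39 in flox 1, 2 and 3, against -0.017, 0.22 and 0.21 in Cre 1, 2 and 3, and the groups overlapped there. Fermt2, kindlin-2, is the kindlin of mesenchymal and most other cells (chromosome 14, 45458795 to 45530118), and stood at 88.9, 69.6 and 138 CPM in flox 1, 2 and 3 and 163, 190.4 and 232 CPM in Cre 1, 2 and 3. Each Cre library was above each flox library, and the log2 fold change was 0.98 ± 0.27 (adjusted p = 0.0535 in edgeR). It passed without flox 3 (0.00479), a fit that called 34.8% of genes. It also passed with library totals in place of TMM (0.0477), a scaling under which 16.8% of all genes were called. By FPKM, Fermt3 was 4.17, 6.12 and 1.60 times Fermt2 in flox 1, 2 and 3, against 0.526, 0.448 and 0.536 times Fermt2 in Cre 1, 2 and 3. Fermt3 RNA was thus the more abundant in all flox libraries and Fermt2 RNA in all Cre libraries.

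Of the 2 talins, Tln2 rose and Tln1 did not pass. Tln1, talin-1, present in nearly all cells, stood at 922, 895 and 643 CPM in flox 1, 2 and 3 and 595, 601 and 658 CPM in Cre 1, 2 and 3. Cre 3 lay just above flox 3, and the log2 fold change was -0.41 ± 0.16 (adjusted p = 0.133 in edgeR). It passed without flox 3 at -0.55 (adjusted p = 0.00909 in edgeR), a fit that called 34.8% of genes. Tln2, talin-2 (chromosome 9, 67217087 to 67559703), stood at 18.6, 13.2 and 10.3 CPM in flox 1, 2 and 3 and 25.9, 27.6 and 42.2 CPM in Cre 1, 2 and 3. It rose by 1.19 ± 0.28 on the log2 scale (adjusted p = 0.0403 in edgeR), yet Tln1 remained 37.7, 35.7 and 25.6 times as abundant by FPKM in Cre 1, 2 and 3, against 81.3, 111 and 103 times in flox 1, 2 and 3.

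Vinculin, which links talin to actin under tension, rose with little spread. Vcl (chromosome 14, 20929398 to 21033676) stood at 148, 117 and 144 CPM in flox 1, 2 and 3 and 225, 245 and 269 CPM in Cre 1, 2 and 3. The log2 fold change was 0.85 ± 0.13 (adjusted p = 0.0237 in edgeR), and the libraries of a group lay close together. Exons of Ap3m1 on the opposite strand overlap 25.5% of its exonic bases. Zyx, zyxin, a LIM protein of mature adhesions and stress fibres, stood at 145, 162 and 161 CPM in flox 1, 2 and 3 and 225, 187 and 188 CPM in Cre 1, 2 and 3, higher in each Cre library without passing (0.36 ± 0.12, adjusted p = 0.0830 in edgeR). Pxn, paxillin, the scaffold that early adhesions recruit (chromosome 5, 115506676 to 115555987), went the other way. It stood at 211, 229 and 217 CPM in flox 1, 2 and 3 and 146, 166 and 162 CPM in Cre 1, 2 and 3, or -0.47 ± 0.10 on the log2 scale (adjusted p = 0.0308 in edgeR). With library totals, which shift the median of all genes by 0.16, it was at -0.32 (adjusted p = 0.0799 in edgeR). The adjusted p without flox 1, flox 2, Cre 1 and Cre 2 in turn was 0.0849, 0.0658, 0.107 and 0.0798 for Vcl, 0.0849, 0.124, 0.110 and 0.0906 for Tln2, 0.0849, 0.0665, 0.107 and 0.0807 for Fermt3 and 0.10, 0.114, 0.154 and 0.101 for Pxn. Without Cre 3, Tln2 and Pxn did not pass either, at 0.0712 and 0.070 (edgeR). Summed macrophage markers were lower and summed stellate markers higher in each Cre library, as given above. The part of cell composition in Vcl, Tln2, Fermt3 and Pxn was not tested.

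Vcl and Fermt2 are shown with their upstream sequences because both hold a CArG box, the element bound by serum response factor, which is known to control many genes of the actin cytoskeleton. A CArG box is CC, then 6 bases of A or T, then GG, and capitals mark it. The stretches are chr14:20929148-20929397, plus strand, and chr14:45530119-45530315, minus strand, of GRCm38.p6, from RefSeq. They are written in the direction of the gene and end before its first annotated exon.
Vcl: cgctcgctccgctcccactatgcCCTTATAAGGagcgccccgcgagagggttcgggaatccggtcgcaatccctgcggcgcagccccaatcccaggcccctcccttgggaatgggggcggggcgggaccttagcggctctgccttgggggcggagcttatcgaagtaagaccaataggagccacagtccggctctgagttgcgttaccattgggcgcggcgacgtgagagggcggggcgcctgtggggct
Fermt2: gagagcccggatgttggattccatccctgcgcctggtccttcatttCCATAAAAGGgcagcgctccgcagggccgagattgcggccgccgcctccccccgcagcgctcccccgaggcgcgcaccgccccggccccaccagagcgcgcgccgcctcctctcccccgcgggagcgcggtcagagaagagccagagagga
The box ends 217 bases before the RefSeq start site of Vcl and 194 bases before that of Fermt2, which lies inside the first exon of the GENCODE annotation, beyond the end of the printed stretch. Of 32851 promoters, 1.47% held a CArG box in the 250 bases before the start, and of the 30 promoters found for members, 3 did. The third was the second start site of Itgb6, which had 0 counts. The match is a description of the sequence only.

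The complex of integrin-linked kinase, PINCH and parvin was uneven. Parva, alpha-parvin, stood at 68.3, 35.0 and 92.8 CPM in flox 1, 2 and 3 and 122, 144 and 131 CPM in Cre 1, 2 and 3, higher in each Cre library, at 1.02 ± 0.33 on the log2 scale (adjusted p = 0.0787 in edgeR). Lims1, PINCH-1, stood at 137, 136 and 162 CPM in flox 1, 2 and 3 and 172, 212 and 175 CPM in Cre 1, 2 and 3, again higher in each Cre library (0.36 ± 0.13, adjusted p = 0.104 in edgeR). Ilk, the scaffold between them, ranged from 105 to 149.6 CPM in flox and from 112 to 136 CPM in Cre, at -0.13 ± 0.16. Its counts are uncertain, since exons of Taf10 on the opposite strand overlap 76.8% of its exonic bases. Exons of Rrp8, also on the opposite strand, overlap it as well. Ptk2, focal adhesion kinase, stood at 83.3, 73.9 and 138 CPM in flox 1, 2 and 3 and 117, 125 and 122 CPM in Cre 1, 2 and 3. Flox 3 was the highest of all, and the log2 fold change was 0.30 ± 0.24 (adjusted p = 0.397 in edgeR). For Fermt2, Parva, Lims1 and Ptk2, flox 3 was the highest flox library. Endothelial markers, summed over 12 genes with 0 at 0, stood at 1714 and 1349 CPM in flox 1 and flox 2, 4265 CPM in flox 3 and 2201 to 3645 CPM in Cre, and their part in these genes was not tested. Without flox 3, where 34.8% of genes were called, Parva, Lims1 and Ptk2 passed. Their log2 fold changes were then 1.36, 0.46 and 0.63 (edgeR adjusted p of 0.0146, 0.0315 and 0.00540).

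**Figure D5:**
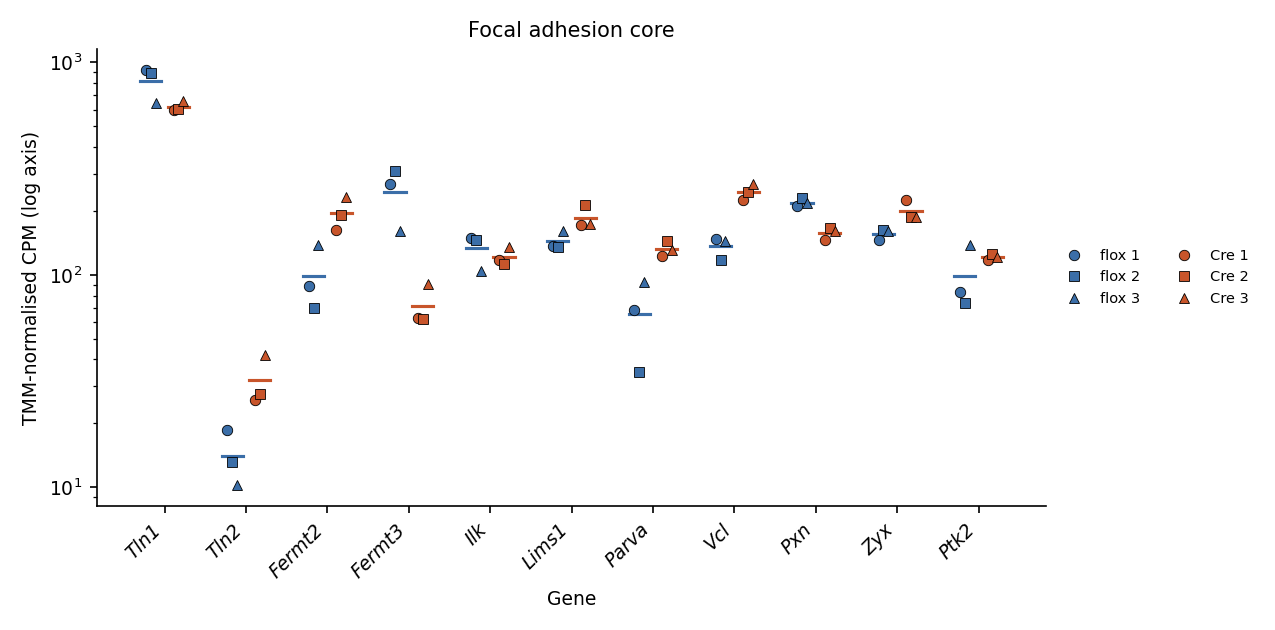
Levels of the 11 focal adhesion core genes in each library, as TMM-normalised CPM on a log axis, with flox in blue and Cre in orange. Symbols stand for the library number and horizontal lines for group means. Fermt3 and Pxn lie below flox in every Cre library, and Tln2, Fermt2, Vcl, Zyx, Parva and Lims1 lie above it.

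The wider integrin pathway was counted in 3 further lists. In a list of 20 genes that switch on or signal from leukocyte integrins, all tested, 16 fell, against 8.94% of all genes tested, and 0 rose, with a median log2 fold change of -1.73. Among those of lowest p were the Src family kinase genes Lyn (-1.42 ± 0.16) and Fgr (-3.03 ± 0.38) and gamma-parvin, Parvg, the parvin of blood cells (-3.36 ± 0.52), with edgeR adjusted p of 0.0226, 0.0237 and 0.0237. Parvg stood at 107, 139 and 34.9 CPM in flox 1, 2 and 3 and 8.86, 6.88 and 11.5 CPM in Cre 1, 2 and 3, opposite to Parva. Leukocyte markers moved with this list as given above, and the list's summed level was 2859.8 to 5261 CPM in flox and 1337 to 1795 CPM in Cre.

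In a list of 42 focal adhesion adaptors and signalling genes, 41 were tested, 7 rose and 3 fell, against 6.35% and 8.94% of all genes tested, with a median of 0.27. Those of lowest p were the zyxin relative Lpp (0.73 ± 0.087), the talin-binding Kank2 (0.62 ± 0.12), the LIM protein gene Pdlim5 (0.63 ± 0.11) and Ptk2b, the focal adhesion kinase relative Pyk2 (-1.74 ± 0.31), with edgeR adjusted p of 0.0237, 0.0267, 0.0250 and 0.0250. Ptk2b stood at 204, 232 and 99.3 CPM in flox 1, 2 and 3 and 58.9, 50.8 and 50.1 CPM in Cre 1, 2 and 3. Lpp stood at 134, 131 and 134 CPM in flox 1, 2 and 3 and 224, 216 and 221 CPM in Cre 1, 2 and 3, with no overlap.

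Of 30 integrin ligand genes, all tested, 6 rose and 1 fell, against the same background, with a median of 0.63. Those of lowest p were the laminin chain gene Lamb1 (1.36 ± 0.18), the matricellular genes Ccn1 (1.44 ± 0.21) and Thbs1 (1.13 ± 0.21) and the alpha4 ligand gene Vcam1 (0.61 ± 0.15), with edgeR adjusted p of 0.0237, 0.0237, 0.0250 and 0.0420. Vcam1 stood at 564, 705 and 539.6 CPM in flox 1, 2 and 3 and 947, 827 and 981 CPM in Cre 1, 2 and 3, so it rose while its receptor chain Itga4 fell. Lamb1 stood at 95.5, 66.2 and 69.5 CPM in flox 1, 2 and 3 and 196, 173 and 222 CPM in Cre 1, 2 and 3, in the same direction as the laminin receptor chain Itga3. The 1 that fell, named after its value was seen, was Tgfb1 (-0.88 ± 0.22, adjusted p = 0.0431 in edgeR). Icam1, the ligand of LFA-1 and Mac-1, was at -0.058 ± 0.23 (adjusted p = 0.884 in edgeR), while both receptors' genes fell.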

How the data were processed

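RNA sequencing of 6 libraries was deposited as raw counts per gene symbol and, in a second table, as FPKM that the authors had derived by library total and 1 length per gene. That proportion was checked in 11560 genes counted over 50 times in every library, and 0 differed from it by more than 1e-06. RNA input was 1.3 µg with a SMARTER mRNA kit, per the labels' protocols. The submitters' processing notes name the builds GRCm38, mm10 and hg38, while neither an aligner nor a counting tool, its annotation or its strand setting is named in the sources used here. Positions are those of GRCm38 from GENCODE, matched by symbol. The 2 tables had 0 unused columns.

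Groups came from the titles. Counts were filtered with filterByExpr (minimum count 10, minimum total 15), scaled by TMM and tested with edgeR 4.0.16 in R 4.3.3 (two-sided quasi-likelihood test, no covariates), with Benjamini-Hochberg adjustment over all 14795 genes tested and a threshold of 0.05. Standard errors were taken from the F statistic. On simulated counts of the same size, edgeR recovered 16% of 100 log2 changes of 1 and 68% of 100 changes of 2. It made 9 false calls among 14595 unchanged genes. In the data 15.3% of genes were called, and the calls depended on single libraries. The simulated rates therefore do not show how many calls in the data are false. DESeq2 1.42.0, limma 3.58.1, other scalings and filters, left-out libraries and a replicate block were alternatives. No 2 libraries of the same group agreed within sampling noise. All 37 members are named. Of each pathway list the 4 genes of lowest p are named, except 1 that is not reported here, and of each of 14 marker lists the 2 of highest mean level over the libraries and those at 0, with a few more named after their values were seen. The members and lists were chosen with earlier results of these data known.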

Additional observations from a re-analysis of the deposited data

How the results depend on the processing

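The counts of calls rest on each library. Over the fits that leave out 1 library, genes called ranged from 0 to 5329, those higher from 0 to 2447 and those lower from 0 to 2882. Leukocyte integrins called lower ranged from 0 to 5, matrix-binding integrins called higher from 0 to 4 and lower from 0 to 1, and core genes called higher from 0 to 6 and lower from 0 to 3. The lowest, 0, came without flox 1, flox 2, Cre 1 or Cre 2, and the highest without flox 3. The replicate numbers did not pair the libraries: correlations of same-numbered deviations were -0.033, -0.10 and -0.056, and 0 of 6 libraries correlated best with its own number. With the replicate block 0 genes were called in edgeR, 0 higher and 0 lower (4296 at an unadjusted p below 0.05), and hence 0 leukocyte, 0 matrix-binding and 0 core genes.

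DESeq2 called 4021 of 17433 genes (1788 higher, 2233 lower), with 4 matrix-binding integrins higher and 2 lower and 4 core genes higher. Limma-voom called 1404 (578 higher, 826 lower), with 0 matrix-binding integrins higher and 1 lower, and 1 core gene higher. Limma on log2(FPKM + 1) called 0 genes, 0 higher and 0 lower (5778 at an unadjusted p below 0.05), hence 0 in every class. On log2(FPKM + 0.1) it called 931 (453 higher, 478 lower), with 0 matrix-binding integrins higher and 1 core gene in each direction. With a mean FPKM of at least 1 there were 4 core genes higher and 1 lower, and 59.6% of calls were higher, against 41.5% in the edgeR fit. Library totals in place of TMM gave 1415 genes higher (57.0% of calls), 4 core genes higher and 1 lower. These 2 settings moved the median of all genes by 0.13 and 0.16. Both scale by library total and leave out the TMM factors, which were 0.905 to 1.009 in flox and 1.039 to 1.072 in Cre. No filter, or at least 1 CPM in 3 libraries, gave 1 matrix-binding integrin lower. The cause of these shifts was not tested.

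The 10 called members kept their direction in all 159 values over the 16 alternatives, and 75 of these were no longer past the threshold. The class difference and the Itgb2 to Itgb1 ratio kept their direction in every alternative run. Of members that did not pass, 5 changed sign. Itga1 ranged from -0.19 to 0.17 with 1 library left out. It was at 0.13 with library totals, 0.011 with no count filter, 0.0010 with the replicate block, 0.14 on log2(FPKM + 1), 0.16 on log2(FPKM + 0.1) and 0.14 with the FPKM minimum. Itga5 ranged from -0.31 to 0.20 with 1 library left out. It was at 0.13 with library totals, 0.0068 with no count filter, 0.090 on log2(FPKM + 1), 0.090 on log2(FPKM + 0.1) and 0.090 with the FPKM minimum. Itgav ranged from -0.18 to 0.26 with 1 library left out. Itga2b ranged from -0.16 to 0.23 with 1 library left out. It was at 0.12 with library totals, 0.0015 with the replicate block, 0.059 on log2(FPKM + 1) and 0.14 on log2(FPKM + 0.1). Ilk was at 0.033 with library totals, 0.038 on log2(FPKM + 1), 0.039 on log2(FPKM + 0.1) and 0.038 with the FPKM minimum.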

Other observations

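Other integrin genes of leukocytes were also set against the mean log2 CPM of the 10 leukocyte genes, a scale chosen after the values had been seen. Itgal stood at 0.22, -0.044 and 0.99 in flox 1, 2 and 3, against 0.028, -0.27 and 0.66 in Cre 1, 2 and 3, and Itga4 at -1.52, -1.40 and -1.83 in flox 1, 2 and 3, against -2.43, -1.70 and -1.85 in Cre 1, 2 and 3. Itgb5, listed with the matrix-binding chains, stood at 0.11, 0.026 and -0.98 in flox 1, 2 and 3, against -0.48, -0.57 and -0.066 in Cre 1, 2 and 3. On this scale the groups overlapped for all 3 of these genes.

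The library flox 3 was the flox library nearest to the mean of the Cre libraries for 21 of the 33 tested members, against 57.0% of all genes tested. This held for all 5 tested leukocyte integrins, 7 of 15 matrix-binding integrins and 7 of 11 core genes.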
